A study of Homo sapiens with 16 samples.

Results

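NCI-H1944 is a human lung adenocarcinoma cell line. H1944 cells carrying a guide against STING (STING DMSO, labelled STING knockout) were compared with H1944 cells carrying the control named SCR (SCR DMSO, labelled WT). Both were given only DMSO, the vehicle, during the 48 h in which other cultures received drug, and both were harvested after 24 h without it. The comparison rests on 4 of the 16 libraries of the series, 2 for each group, which were assigned by their labels. The other libraries came from the same lines after the MPS1 kinase inhibitor BAY-1217389 (MPS1i, 100 nM), from a line with a guide against MAVS, and from a double knockout line (DKO, labelled STING/MAVS knockout), each under DMSO and after MPS1i. All lines were grown in serum-containing medium with antibiotics. The labels do not say whether a line is 1 clone or a pool, how the guides were delivered, or whether the 2 libraries of a group came from separate cultures. The p-values below therefore rest on a spread between libraries of the same group that may be technical. That spread was pooled over all 8 groups of the series, so it need not be that of the 2 groups compared.

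STING is an adaptor protein of the endoplasmic reticulum. It is activated by the second messenger that the sensor cGAS makes on cytosolic DNA, and it then engages the kinase TBK1 and the transcription factor IRF3. IRF3 turns on type I and type III interferons, and secreted interferon acts back on the cells through JAK kinases and transcription factors such as STAT2 and IRF9 to turn on a large set of antiviral genes. MAVS is the adaptor of the parallel route from the RNA sensors RIG-I and MDA5. Many lung adenocarcinoma lines express some interferon-stimulated genes in culture with no added stimulus, and the comparison asks which transcripts of unstimulated cells differ when STING is targeted.

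Genes were counted in 24036388 and 20247175 reads of STING DMSO and in 49769938 and 35292086 reads of SCR DMSO, within a range of 19893784 to 49769938 over the series. Levels are given as CPM, counts scaled to the size of each library. The correlation of log2 CPM between replicates was 0.9861 in STING DMSO, the lowest of the 8 groups, and 0.9928 in SCR DMSO. STING DMSO libraries stood apart in the make-up of their RNA. Long noncoding RNA (lncRNA) genes held 1.93% and 1.96% of the counts in STING DMSO, 1.59% and 1.6% in SCR DMSO, and 1.45% to 1.6% in the libraries of the other groups. Abundant genes weigh most in such a share, and the rise of the lncRNA MALAT1 described below is part of it. Genes annotated as TEC, an annotation class for transcripts awaiting experimental support, held 0.0333% and 0.0339% in STING DMSO, against 0.0261% and 0.0258% in SCR DMSO. The median log2 fold change of STING DMSO over SCR DMSO was 0.17 over 2574 lncRNA genes, 0.53 over 193 TEC genes and -0.02 over 14113 protein coding genes. After MPS1i, the same guide contrast had medians of -0.01 for lncRNA genes and -0.15 for TEC genes. The part of this shift in the results below was not tested, and in a fit of protein coding genes alone, added after seeing the data, 1416 of the 1608 protein coding calls were made again.

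**Figure D1:**
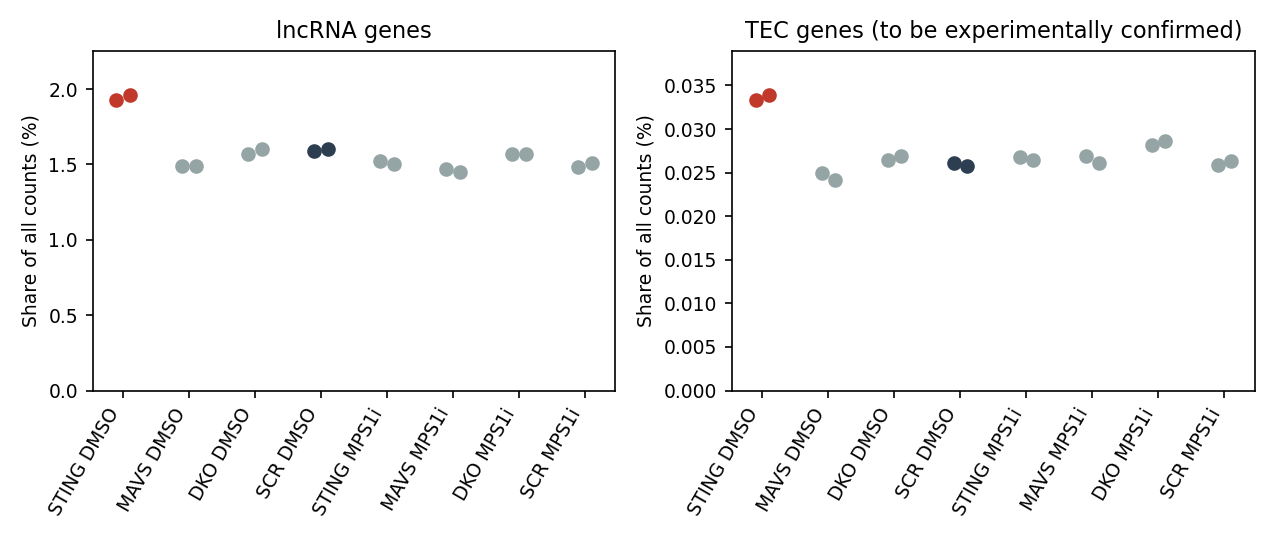
Share of all counts (%) held by lncRNA genes (left) and TEC genes (right) in each of the 16 libraries, 1 point per library, with STING DMSO in red, SCR DMSO in dark blue and other groups in grey. Both STING DMSO libraries lie above every other library, at 1.93% and 1.96% for lncRNA genes.

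The labels were set against the level of the targeted gene. STING1 (ENSG00000184584, chr5:139475533-139482935, minus strand, GRCh38) had 3.78 and 3.70 CPM in STING DMSO, from 92 and 76 counts, and 8.25 and 8.30 CPM in SCR DMSO, from 407 and 287 counts. The groups did not overlap, and STING1 fell by 1.14 on the log2 scale (SE 0.12, adjusted p = 2.1e-07, edgeR quasi-likelihood test with Benjamini-Hochberg adjustment, as for every adjusted p below). After MPS1i, STING1 stood at 5.99 and 5.89 CPM with the STING guide, against 29.1 and 28.9 CPM in SCR. Counts per gene do not show whether the remaining transcripts carry an edit. Of the 26 tested genes within 1 Mb of STING1, 1 was called higher (the snoRNA host gene SNHG4) and 4 were called lower (HSPA9, UBE2D2, PURA and PFDN1), with a median log2 fold change of -0.11. Over all tested genes 4.7% were called higher and 5.47% lower, and of the 5 neighbours only HSPA9 kept its call in every fit that left out 1 of the 4 libraries.

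The tissue label was read from 28 markers of lung epithelium, of which 15 passed the filter on low counts. CEACAM6, an adhesion protein of epithelial tumours, stood at 1135 and 1131 CPM in STING DMSO and 1302 and 1373 CPM in SCR DMSO. The defining alveolar and airway markers NKX2-1, SFTPA1, SFTPB and SCGB1A1 had 0 counts in all 4 libraries. Of the defining markers of other cells, the T cell gene CD3D had 0 counts in the 4 libraries and the leukocyte gene PTPRC had 1 count in 1 STING DMSO library. Of 21 immune markers 9 were tested and 1 was called (ITGAX, higher), and of 15 stromal and endothelial markers 8 were tested and 1 was called (DCN, higher). These were 11.1% and 12.5% of the tested markers, against 4.7% of all tested genes. Summed over tested markers, immune genes held 109.7 and 107 CPM in STING DMSO against 91.8 and 101 CPM in SCR DMSO, mostly from CD68. Stromal genes held 38.8 and 42.1 CPM in STING DMSO against 38.4 and 41.9 CPM in SCR DMSO.

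Across 17950 tested genes, 1826 were called at an adjusted p under 0.05, which is 10.2% of those tested. Of these, 844 (4.7%) were higher and 982 (5.47%) lower in STING DMSO. The balance of directions depended on the genes in the fit. Protein coding genes split into 659 higher and 949 lower here and into 829 higher and 757 lower when fitted alone, and without the filter on low counts 843 genes were higher and 1293 lower, against 934 higher and 915 lower with a filter at 1 CPM. Most differences were small. A change of at least 2-fold was found for 203 called genes (1.13%), with 131 higher (0.73%) and 72 lower (0.401%). Of the 131, 61 were protein coding, and of the 72, 64 were. Among the 72, 25 belonged to a list of 58 interferon-response genes, and none of the 131 did. When protein coding genes were fitted alone, 126 passed at 2-fold, 65 higher and 61 lower. Without STING DMSO replicate 2 the split at 2-fold was 69 higher and 67 lower. Leaving out 1 library of the 4 left between 913 and 1283 called genes, fewer without either STING DMSO library or without SCR DMSO replicate 2 (913, 946 and 972) than without SCR DMSO replicate 1 (1283).

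**Figure D2:**
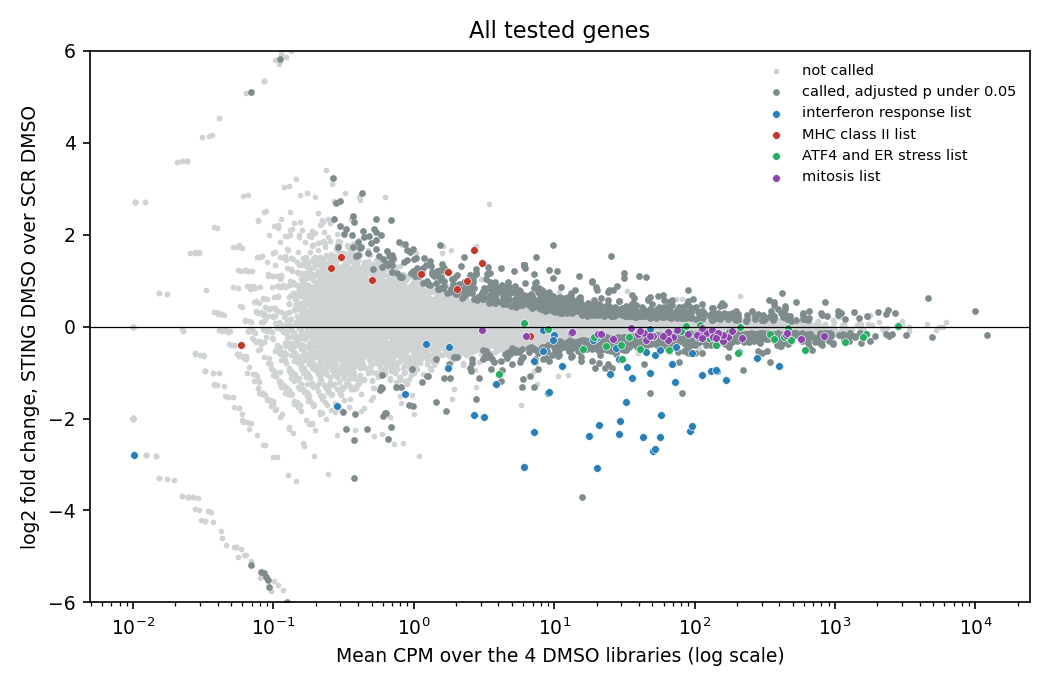
Log2 fold change of STING DMSO over SCR DMSO (vertical) against mean CPM over the 4 libraries (horizontal, log axis) for the tested genes, with called genes in dark grey and 4 gene lists in colour; 31 genes lie beyond the vertical limits of 6. Blue points of the interferon list run down to -3.07, while red points of the MHC class II list reach 1.67 at low levels.

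The interferon response was lower in cells with the STING guide. Of 58 listed genes, all of them tested, 47 fell, none was called higher and 11 did not pass. The share lower was 81.0%, against 5.47% of all tested genes. The median log2 fold change was -0.98, against -0.0 over all tested genes. In such bulk samples, fewer cells of a kind and less RNA per cell cannot be told apart. Summed over the list, CPM were 2075 and 2158 in STING DMSO and 4210 and 4281 in SCR DMSO.

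The 12 largest falls among called genes of at least 1 CPM were CCL5 and 11 members of this list. CCL5 (chr17:35871491-35880793, minus strand), a chemokine that draws T cells, had 1.89 and 2.63 CPM in STING DMSO and 28.8 and 29.9 CPM in SCR DMSO. It fell by 3.71 on the log2 scale (SE 0.10, adjusted p = 1.5e-18). No listed gene of the interferon response fell further. OASL, a member of the oligoadenylate synthetase family that aids RIG-I, had 4.31 and 4.23 CPM in STING DMSO against 37.0 and 34.6 CPM in SCR DMSO, and fell by 3.07 (SE 0.12, adjusted p = 7.6e-12). HERC5, the ligase that attaches ISG15 to target proteins, had 1.36 and 1.26 CPM in STING DMSO against 10.8 and 11 CPM in SCR DMSO, and fell by 3.05 (SE 0.12, adjusted p = 1.9e-15). In each of these genes the groups lay far apart relative to the gap between replicates.

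The IFIT proteins, which bind foreign RNA and hold back its translation, form one cluster on chromosome 10. IFIT1 (chr10:89392546-89406487, plus strand) had 12.2 and 16.2 CPM in STING DMSO and 87.7 and 91.0 CPM in SCR DMSO. It fell by 2.66 (SE 0.11, adjusted p = 4.4e-09). IFIT2 fell by 2.70, IFIT3 by 2.41 and IFIT5 by 1.00 on the same scale. Among the oligoadenylate synthetases, which activate RNase L on double-stranded RNA, OAS2 fell by 1.92, OAS3 by 1.17 and OAS1 by 0.96. The dynamin-like GTPase MX1, which blocks viral nucleocapsids, had 28.8 and 34.7 CPM in STING DMSO against 156 and 149 CPM in SCR DMSO. MX1 fell by 2.27 (SE 0.08, adjusted p = 4.6e-13), whereas its paralog MX2 had a log2 fold change of -0.90 that did not pass (adjusted p = 0.20).

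ISG15, a ubiquitin-like modifier, had 7.23 and 8.27 CPM in STING DMSO and 35.1 and 32.6 CPM in SCR DMSO, and fell by 2.14 (SE 0.20, adjusted p = 0.00014). USP18, the protease that removes ISG15, fell by 1.43. IFI44L and IFI44, neighbouring genes on chromosome 1, fell by 2.41 and 2.33. The helicase DDX60 fell by 2.17, XAF1, an antagonist of the apoptosis inhibitor XIAP, by 2.29, and IFI27 by 2.37. Smaller falls included the membrane proteins IFITM3 (-0.45) and BST2 (-0.25). The 11 that did not pass included RSAD2, at 0.821 and 1.41 CPM in STING DMSO against 3.99 and 4.42 CPM in SCR DMSO (log2 fold change -1.93, SE 0.57, adjusted p = 0.074), TRIM22 (-0.19), IFITM1 (-0.45), IFITM2 (-0.06), UBE2L6 (-0.24) and UBA7 (-0.37). ZBP1 was at 0 counts in 3 of the 4 libraries.

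The promoters of interferon-stimulated genes hold an element, the interferon-stimulated response element, that STAT2-IRF9 complexes and other IRF proteins bind. Its core was searched as GAAA, any 2 bases and GAAA, on both strands with overlaps allowed, in RefSeq promoters (GRCh38.p14, 250 bases before to 50 bases after each start). Promoters were matched for 12240 of the 17950 tested genes. The 4 shown belong to genes with large falls and are written along the gene's strand, with bases that fall within a match in capitals. They lie at chr10:89392373-89392672 for IFIT1, chr1:1013247-1013546 for ISG15, chr4:88456869-88457168 for HERC5 and chr21:41420308-41420607 for MX1, all on the plus strand.
IFIT1: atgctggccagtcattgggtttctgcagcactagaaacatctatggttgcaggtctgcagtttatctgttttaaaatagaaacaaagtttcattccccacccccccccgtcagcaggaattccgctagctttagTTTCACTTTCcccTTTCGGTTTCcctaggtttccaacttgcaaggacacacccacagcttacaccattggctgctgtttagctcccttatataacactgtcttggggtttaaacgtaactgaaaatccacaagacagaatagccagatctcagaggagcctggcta
ISG15: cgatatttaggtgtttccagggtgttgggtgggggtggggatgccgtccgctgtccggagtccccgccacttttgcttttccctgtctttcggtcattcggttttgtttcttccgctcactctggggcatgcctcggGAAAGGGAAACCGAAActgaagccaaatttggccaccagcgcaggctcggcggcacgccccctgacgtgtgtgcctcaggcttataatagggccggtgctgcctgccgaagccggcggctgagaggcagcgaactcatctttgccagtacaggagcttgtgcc
HERC5: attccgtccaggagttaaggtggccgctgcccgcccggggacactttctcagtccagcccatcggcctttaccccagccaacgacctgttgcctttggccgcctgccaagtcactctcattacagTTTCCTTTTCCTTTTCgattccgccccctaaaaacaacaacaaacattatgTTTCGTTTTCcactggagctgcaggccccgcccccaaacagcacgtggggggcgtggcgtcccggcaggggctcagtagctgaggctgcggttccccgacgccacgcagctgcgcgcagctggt
MX1: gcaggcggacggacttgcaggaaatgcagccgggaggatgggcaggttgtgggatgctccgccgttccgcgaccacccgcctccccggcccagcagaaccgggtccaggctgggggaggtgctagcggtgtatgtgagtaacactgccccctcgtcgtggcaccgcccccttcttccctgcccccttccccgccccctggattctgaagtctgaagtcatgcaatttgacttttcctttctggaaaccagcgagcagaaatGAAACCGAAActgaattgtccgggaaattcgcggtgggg

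In IFIT1 the 2 matches began 116 and 103 bases before the start, on the minus strand. The 2 matches of ISG15 overlapped on the plus strand, beginning 113 and 107 bases before the start. HERC5 had 3 on the minus strand, of which 2 overlapped, while the single match of MX1 began 11 bases after the start. The core was found in 21 of 48 promoters of genes called at least 2-fold lower (43.8%, Wilson 95% interval 30.7% to 57.7%). It was found in 72 of 803 promoters of all genes called lower (8.97%), in 11 of 555 of genes called higher (1.98%), in 369 of 12131 of tested genes (3.04%) and in 996 of 27305 in the whole table (3.65%). In the interferon list, 28 of 41 promoters of genes called lower held it (68.3%), as did 31 of 46 of the whole list (67.4%). A match describes the letters of the window and does not show binding.

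**Figure D3:**
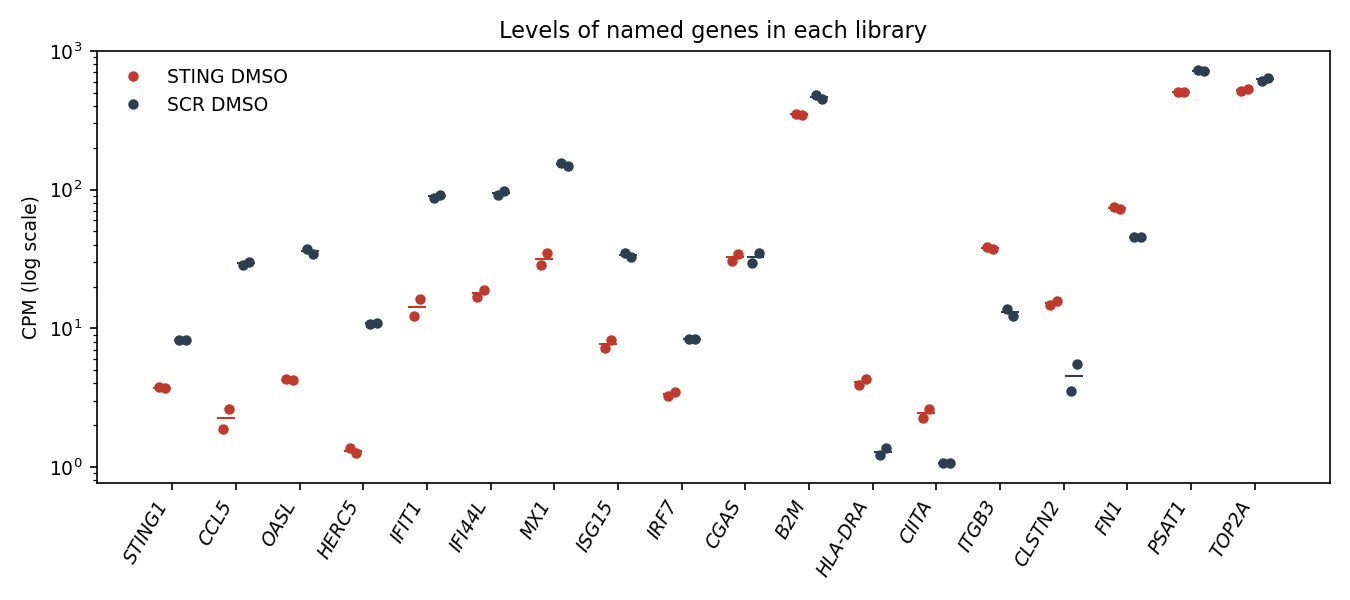
CPM (log axis) of 18 genes in each library, with STING DMSO in red at the left of each pair, SCR DMSO in dark blue at the right, points for single libraries and short lines for their means. CCL5 shows the widest gap, at 1.89 and 2.63 CPM against 28.8 and 29.9 CPM, while CGAS lies at the same level in both groups.

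Of 25 genes of the JAK-STAT and IRF list, 4 fell and none was called higher (median log2 fold change -0.01). Among those that fell were IRF7, IRF9 and STAT2, which are themselves induced by interferon. IRF7, the factor that amplifies interferon production, had 3.24 and 3.45 CPM in STING DMSO against 8.37 and 8.33 CPM in SCR DMSO, and fell by 1.32 (SE 0.13, adjusted p = 7.6e-08). IRF9 fell by 0.91 and STAT2 by 0.36, with no overlap between the groups. IRF3 had 14.6 and 14.7 CPM in STING DMSO against 17.0 and 16.2 CPM in SCR DMSO, which did not pass (log2 fold change -0.18, adjusted p = 0.29).

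Transcripts of the interferons IFNB1 and IFNL1 were at or near the floor of detection. IFNB1 had 0 counts in both STING DMSO libraries and a single count in 1 SCR DMSO library. IFNL1, a type III interferon, had 0 CPM in both STING DMSO libraries against 0.101 and 0.116 CPM in SCR DMSO, where 3 counts correspond to 0.125 and 0.148 CPM in STING DMSO and 0.0603 and 0.0850 CPM in SCR DMSO. IFNL1 thus lay a little above the floor in both SCR DMSO libraries. Such floors cover counting error only. CXCL10, a chemokine for activated T cells, had 0.0411 and 0.195 CPM in STING DMSO and 0.0811 and 0.0867 CPM in SCR DMSO, so the groups overlapped (adjusted p = 0.83). Of 15 tested genes in the list of interferons and T cell chemokines, CCL5 and the death ligand TNFSF10 (-0.47, adjusted p = 0.019) fell. CCL20 was called higher (1.53, adjusted p = 0.032), with 0.904 and 0.243 CPM in STING DMSO and 0.182 and 0.231 CPM in SCR DMSO. Shares of this list were 13.3% lower and 6.67% higher, against 5.47% and 4.7% of all tested genes. The calls of TNFSF10 and CCL20 were each lost when any of 3 single libraries was left out: SCR DMSO replicate 2 or either STING DMSO library for TNFSF10, and either SCR DMSO library or STING DMSO replicate 1 for CCL20.

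Most genes of the sensing pathway itself did not pass. Of 24 genes of the cGAS-STING list, 3 fell (12.5%, against 5.47% of all tested genes). They were STING1, the DNA-binding protein IFI16 (-0.67) and SAMHD1, which degrades nucleotides (-0.89). CGAS had 30.4 and 34.5 CPM in STING DMSO and 29.8 and 35.0 CPM in SCR DMSO (log2 fold change 0.00, adjusted p = 0.99). TBK1 had 83.3 and 90.3 CPM in STING DMSO and 87.0 and 88.6 CPM in SCR DMSO (adjusted p = 0.90). Of 22 genes of RNA sensing, 8 fell (36.4%, against 5.47% of all tested genes) and 1 rose (4.55%, against 4.7%). Among the 8 were the RNA sensors DDX58 (RIG-I, -1.44) and IFIH1 (MDA5, -1.45) and the RNA editor ADAR (-0.51). The RNA-dependent kinase EIF2AK2 (-0.86), another of the 8, is also in the interferon-response list. MAVS was called higher, at 209 and 204 CPM in STING DMSO against 189 and 183 CPM in SCR DMSO (0.15, SE 0.05, adjusted p = 0.034), and that call was lost without any 1 of the 4 libraries.

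Some genes for presenting peptides on MHC class I fell as well. Of 21 tested, 7 fell (33.3%, against 5.47% of all tested genes) and none was called higher, with a median of -0.21. B2M, the shared light chain, had 351 and 345 CPM in STING DMSO and 479 and 453 CPM in SCR DMSO, and fell by 0.42 (SE 0.05, adjusted p = 1.3e-06). HLA-B fell by 0.45, while HLA-E had a log2 fold change of -0.01 that did not pass. The peptide transporter TAP2 fell by 0.34 and the chaperone CANX by 0.32. HLA genes are polymorphic and near-identical to each other, so their counts carry extra uncertainty. In the list of guanylate-binding proteins and APOL, genes that respond strongly to type II interferon, 4 of 11 fell: GBP4 (-1.88), APOL6 (-0.58), the tRNA synthetase WARS1 (-0.53) and APOL1 (-0.18). That was 36.4%, against 5.47% of all tested genes.

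MHC class II genes were called in the higher direction with the STING guide. These genes present antigen to CD4 T cells and are run by the coactivator CIITA. Of 14 listed, 11 passed the filter. Of the 11, 6 were called higher (54.5%, against 4.7% of all tested genes) and none lower. The median log2 fold change was 1.14. HLA-DRA (chr6:32439878-32445046, plus strand) had 3.90 and 4.28 CPM in STING DMSO, from 95 and 88 counts, and 1.22 and 1.36 CPM in SCR DMSO, from 60 and 47 counts. It rose by 1.67 (SE 0.19, adjusted p = 6.9e-07). CIITA had 2.26 and 2.63 CPM in STING DMSO against 1.07 and 1.07 CPM in SCR DMSO, and rose by 1.18 (SE 0.24, adjusted p = 0.0016). HLA-DMB, which helps load peptide, rose by 1.38, the invariant chain CD74 by 1.00, HLA-DPA1 by 1.14 and HLA-DMA by 0.82. Levels were low throughout, with a sum over the list of 24.2 and 27.8 CPM in STING DMSO and 15 and 16.4 CPM in SCR DMSO. HLA-DMA lost its call without SCR DMSO replicate 2 or STING DMSO replicate 2, and HLA-DPA1 without SCR DMSO replicate 1 or STING DMSO replicate 1.

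**Figure D4:**
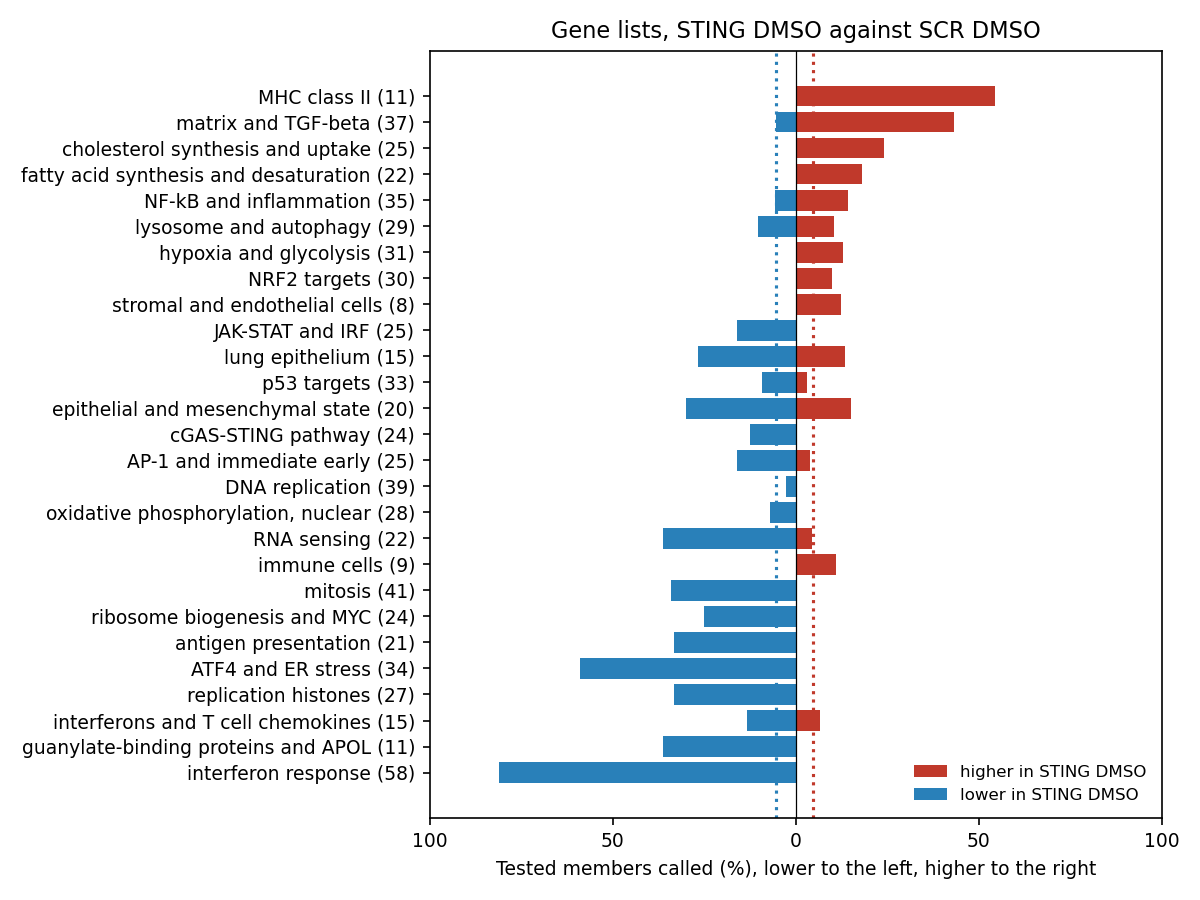
Percentage of tested genes called higher (right, red) or lower (left, blue) in STING DMSO than in SCR DMSO for 27 gene lists, with the number tested in brackets; lists are ordered by median log2 fold change and dotted lines mark the shares over all tested genes, 4.7% and 5.47%. The interferon response list reaches furthest to the left, with 47 of 58 genes, and MHC class II furthest to the right, with 6 of 11.

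Among the 12 largest rises of called genes with at least 1 CPM, long noncoding and structural RNAs stood beside protein coding genes. CLSTN2 (chr3:139935185-140577397, plus strand), a synaptic cadherin-family protein, had 14.7 and 15.6 CPM in STING DMSO and 3.53 and 5.52 CPM in SCR DMSO, and rose by 1.78 (SE 0.14, adjusted p = 7.5e-09). ITGB3, the beta subunit of the vitronectin receptor, had 38.4 and 37.4 CPM in STING DMSO against 13.8 and 12.2 CPM in SCR DMSO, and rose by 1.54 (SE 0.07, adjusted p = 5.8e-14). RGS4, a regulator of G protein signalling, rose by 1.5 at 1.64 and 1.85 CPM in STING DMSO against 0.507 and 0.752 CPM in SCR DMSO. The noncoding RNA BCYRN1 rose by 1.51 and the U2 copy RNU2-2P by 1.52. U2 copies are nearly identical, and reads cannot be assigned among them. Apart from RNU2-2P, 11 annotated copies had the same rounded log2 fold change. They are read as 1 signal, though each was tested as a separate gene. Besides HLA-DRA and HLA-DMB, the remaining rises among these 12 were the ribosomal protein pseudogene RPS27AP16 (1.77) and 4 uncharacterized loci, AC008746.12 (1.5), RP11-268J15.6 (1.47), RP13-895J2.4 (1.42) and ENSG00000288674 (1.36). RPS27AP16 rested on 1.11 and 3.65 CPM in STING DMSO against 0.750 and 0.607 CPM in SCR DMSO, and it lost its call without SCR DMSO replicate 2 or STING DMSO replicate 2.

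Matrix genes and genes of TGF-beta signalling were more often higher. Of 37 tested, 16 rose (43.2%, against 4.7% of all tested genes) and 2 fell (5.41%, against 5.47%), with a median of 0.23. The ligand TGFB2 had 18.3 and 17.0 CPM in STING DMSO and 9.69 and 10.8 CPM in SCR DMSO, and rose by 0.79 (SE 0.11, adjusted p = 1.5e-05). TGFB1 rose by 0.56. Fibronectin (FN1), the major adhesive protein of provisional matrix, had 75.4 and 71.9 CPM in STING DMSO against 45.4 and 45.9 CPM in SCR DMSO, and rose by 0.69 (SE 0.06, adjusted p = 2.6e-09). Thrombospondin 1 (THBS1) rose by 0.62, the collagen crosslinking enzyme LOXL2 by 0.58, collagen VI chain COL6A2 by 0.76 and collagenase MMP1 by 1.67. MMP1 did not meet the rule of the 12 largest rises, a mean of at least 1 CPM and libraries that do not overlap. The 2 that fell, LAMB3 (-0.32) and COL17A1 (-0.56), are parts of the hemidesmosome attachment of epithelial cells.

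Genes that mark epithelial or mesenchymal state moved both ways. Of 20 tested, 3 rose (CDH2, 0.59; ZEB2, 0.48; FBN1, 0.25) and 6 fell. CDH1, the epithelial cadherin, had 52.8 and 53.4 CPM in STING DMSO and 69.0 and 68.5 CPM in SCR DMSO, and fell by 0.37 (SE 0.06, adjusted p = 5.9e-05). Of the others, the junction proteins OCLN (-0.64), TJP1 (-0.22) and CLDN7 (-1.32) and the splicing factor ESRP1 (-1.73) are epithelial, whereas SNAI2 (-0.43) is a mesenchymal transcription factor. CLDN7 and ESRP1 were below 2 CPM in all 4 libraries and lost their calls without single libraries. VIM had a log2 fold change of 0.11 and ZEB1 of 0.07, and neither passed. In the lung list, the secreted mucin MUC5AC had 23.7 and 25.3 CPM in STING DMSO against 11.7 and 13.6 CPM in SCR DMSO and rose by 0.96 (SE 0.08, adjusted p = 4.1e-09). HOPX rose by 0.69, and MUC13 (-0.53), CEACAM6 (-0.24), CEACAM5 (-0.34) and LAMP3 (-1.46), the last also induced by interferon, fell. Of the 15 tested lung genes, 13.3% were called higher and 26.7% lower, against 4.7% and 5.47% of all tested genes.

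The largest share of falls outside the interferon genes was in the ATF4 and endoplasmic reticulum stress list. ATF4 is the transcription factor that raises amino acid synthesis and transport under stress. Of 34 genes, 20 fell (58.8%, against 5.47% of all tested genes) and none was called higher, with a median of -0.23. PSAT1, an enzyme of serine synthesis, had 509 and 507 CPM in STING DMSO and 724 and 715 CPM in SCR DMSO, and fell by 0.50 (SE 0.05, adjusted p = 3.2e-08). ASNS, which makes asparagine, had 163 and 163 CPM in STING DMSO against 235 and 248 CPM in SCR DMSO, and fell by 0.57 (SE 0.06, adjusted p = 1.2e-07). The serine synthesis enzyme PHGDH fell by 0.52, the transsulfuration enzyme CBS by 0.71 and the chaperone HSPA5 by 0.34. ATF4 itself had 462 and 450 CPM in STING DMSO and 494 and 432 CPM in SCR DMSO (log2 fold change -0.02, adjusted p = 0.86). Without STING DMSO replicate 2, 13 genes of the list were called.

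Mitosis genes differed by little but in one direction. Of 41 tested, 14 fell (34.1%, against 5.47% of all tested genes) and none was called higher. Log2 fold changes ran from -0.31 to -0.04, with a median of -0.18. TOP2A, the topoisomerase that untangles replicated chromosomes, had 514 and 528 CPM in STING DMSO and 609 and 636 CPM in SCR DMSO, and fell by 0.26 (SE 0.05, adjusted p = 0.0017). FOXM1, the transcription factor of mitotic genes, fell by 0.31, CCNB1 by 0.24 and MKI67 by 0.21. TTK, the gene of the MPS1 kinase, had a log2 fold change of -0.21 that did not pass (adjusted p = 0.056). The mitosis count was 4 without STING DMSO replicate 1, 7 without SCR DMSO replicate 2, 8 without STING DMSO replicate 2, and 24 when genes of low count were kept in the fit.

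Of 39 DNA replication genes 1 fell (RRM1, -0.16), a share of 2.56% against 5.47% of all tested genes. Of 27 replication histone genes 9 fell (33.3%, median -0.23), H1-3 by 0.36 and H4C14 by 0.37 among them. The histone count was 4 without SCR DMSO replicate 1, 5 without STING DMSO replicate 1 and 14 when genes of low count were kept in the fit. Histone transcripts mostly lack poly(A) tails, so poly(A) enrichment samples only some of them. Of 24 genes of ribosome biogenesis and MYC 6 fell (25.0%, against 5.47% of all tested genes), with NPM1 at -0.21 and DKC1 at -0.33. MYC itself fell by 0.18. Of 28 nuclear genes of oxidative phosphorylation 2 fell (COX7A2 and CYCS), a share of 7.14% against 5.47% of all tested genes.

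Inflammatory genes under NF-kB moved both ways. Of 35 tested, 5 rose (14.3%, against 4.7% of all tested genes) and 2 fell (5.71%, against 5.47%), with a median of 0.04. IL6 had 13.8 and 14.4 CPM in STING DMSO and 10.2 and 9.02 CPM in SCR DMSO, and rose by 0.54 (SE 0.08, adjusted p = 3.7e-05). The adhesion molecule ICAM1 rose by 0.62, the prostaglandin synthase PTGS2 by 0.44 and the mitochondrial superoxide dismutase SOD2 by 0.30. The siderophore-binding protein LCN2 fell by 0.74 and TNIP1 by 0.21. Of 25 AP-1 and immediate early genes, DUSP5 rose (0.35) and KLF4 (-0.39), ATF3 (-0.63), MYC and DUSP6 fell. The share of this list called higher was below the 4.7% of all tested genes, and the share called lower was above 5.47%. Of 33 p53 targets, ZMAT3 rose (0.37) and SESN2 (-0.43), GADD45A (-0.29) and TNFRSF10B (-0.13) fell. These were shares of 3.03% higher and 9.09% lower, near the 4.7% and 5.47% of all tested genes.

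Lipid synthesis genes were called in 1 direction. Of 25 genes of cholesterol synthesis and uptake, 6 rose (24.0%, against 4.7% of all tested genes) and 19 did not pass. The list median was 0.11, and HMGCS1 rose by 0.25, MSMO1 by 0.22, SQLE by 0.19 and HSD17B7 by 0.42. Of 22 genes of fatty acid synthesis and desaturation, 4 rose (18.2%, against 4.7% of all tested genes) and 18 did not pass. The 4 were the lipase PNPLA3 (0.91), SCD5 (0.51), ELOVL6 (0.29) and ACSL4 (0.27). Of 30 NRF2 targets 3 rose, all aldo-keto reductases (AKR1B1, 0.54; AKR1B10, 0.38; AKR1C1, 0.32), which are similar in sequence. Of 31 hypoxia and glycolysis genes 4 rose, with PFKFB3 highest at 0.58, and of 29 lysosome and autophagy genes 3 rose and 3 fell. Shares higher were 10.0% of NRF2, 12.9% of hypoxia and 10.3% of lysosome genes, against 4.7% of all tested genes. The lysosome share lower was also 10.3%, against 5.47%. Among the most abundant called genes, the lncRNA MALAT1 rose by 0.63, at 5496 and 5616 CPM in STING DMSO against 3538 and 3634 CPM in SCR DMSO. Its counts are part of the lncRNA shares given above. SPP1 (osteopontin) rose by 0.29, and CPS1, a urea cycle enzyme expressed in some lung adenocarcinomas, fell by 0.23 at 4499 and 4525 CPM in STING DMSO against 5204 and 5408 CPM in SCR DMSO. MTCO1P12, a nuclear pseudogene copy of a mitochondrial gene, rose by 0.34. Genes of the mitochondrial genome itself were not counted, and near-identical genes may share reads. Among other such copies, MTCO3P12 (0.35) and MTATP6P1 (0.36) were called higher. MTND2P28 (-0.01), MTCO2P12 (0.06), MTND1P23 (0.20) and MTATP8P1 (0.35) did not pass. EEF1A1 and PABPC1, also abundant, each fell by 0.18.

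Along the genome, medians of neighbouring genes stayed close to 0. Over 277 windows of 10 Mb with at least 20 tested genes, median log2 fold changes ran from -0.19 (chromosome X, 130 to 140 Mb) to 0.43 (chromosome 9, 60 to 70 Mb, 37 genes), and 1 window lay beyond 0.2 in size. Over windows of 5 Mb with the same minimum of genes the range was -0.21 to 0.21. Of the chromosome 9 window only 65 to 70 Mb (20 genes, 0.21) met that minimum, so 60 to 65 Mb was left out. Chromosome medians ran from -0.06 on chromosome 5 to 0.06 on chromosome 22.

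Besides the genes already marked, some calls described above did not hold in every fit that left out 1 of the 4 libraries. Among genes called lower these were GBP4, APOL1, BST2, NT5C3A, LAMP3, CEACAM5, SNAI2, MKI67, RRM1, NPM1, MYC, COX7A2, CYCS, TNIP1, DUSP6, GADD45A, TNFRSF10B, EEF1A1, PABPC1, UBE2D2, PURA and PFDN1. Among genes called higher they were AC008746.12, RP11-268J15.6, ENSG00000288674, CDH2, ITGAX, HSD17B7, MSMO1, SQLE and SNHG4.

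The same guide was compared with SCR in 4 libraries treated with MPS1i, which share none with the DMSO comparison. There, 2843 genes (15.8%) were higher and 3106 (17.3%) lower with the STING guide, 5949 in all (33.1%). Of the 844 genes higher under DMSO, 366 were also called higher after MPS1i, which is 43.4% of the DMSO list and 12.9% of the MPS1i list, and 123 were called lower. Of the 982 genes lower under DMSO, 454 were also called lower after MPS1i (46.2% of the DMSO list and 14.6% of the MPS1i list), and 136 were called higher. Of the 72 genes at least 2-fold lower under DMSO, 53 were called lower after MPS1i and 1 higher. Of the 131 genes at least 2-fold higher under DMSO, 24 were called higher and 24 lower.

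**Figure D5:**
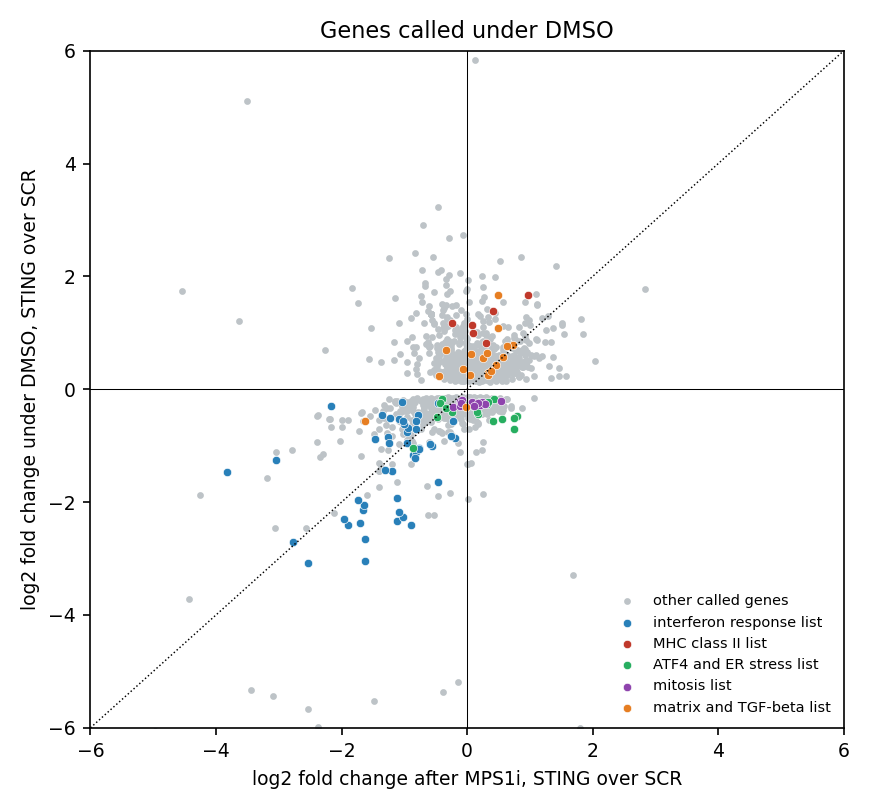
Log2 fold change of the STING guide over SCR under DMSO (vertical) against the same contrast after MPS1i (horizontal) for the 1826 genes called under DMSO, with 5 gene lists in colour and a dotted line where both are equal; 3 genes lie beyond the limits of 6. Interferon genes (blue) lie at the lower left, and ATF4 genes (green) lie on both sides of the vertical axis.

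All 58 interferon-response genes were called lower with the STING guide after MPS1i, with a median of -1.11. The difference between the 2 effects was tested as an interaction, the effect after MPS1i minus the effect under DMSO, which was called higher for 1790 genes (9.97%) and lower for 1714 (9.55%), 3504 in all (19.5%), and shares the DMSO libraries with the comparison above. In the interferon list the interaction was called positive in 20 genes and negative in 23. IFI44L had 353 and 340 CPM with the STING guide after MPS1i against 635 and 651 CPM in SCR, a fall of 0.89 where it had been 2.41 under DMSO (interaction 1.51, adjusted p = 1.1e-12). MX1, IFIT1, HERC5 and DDX60 went the same way, with interactions of 1.25, 1.05, 1.42 and 1.08. In the other direction, NT5C3A had 49.5 and 45.4 CPM against 208 and 219 CPM in SCR after MPS1i, and its fold change was -2.17 there and -0.29 under DMSO (interaction -1.88, adjusted p = 1.1e-12). TRIM22, UBA7 and ISG20 had interactions of -1.94, -2.12 and -1.78. CCL5 was lower in both, with 16.3 and 16.4 CPM against 347 and 359 CPM in SCR after MPS1i (interaction -0.72, adjusted p = 0.0014).

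Antigen presentation on MHC class I differed more after MPS1i, where 20 of 21 genes fell with a median of -1.32, and the interaction was called negative in 20. B2M had 753 and 751 CPM with the STING guide after MPS1i against 2379.6 and 2457 CPM in SCR. NF-kB genes, of which 28 of 35 fell after MPS1i, had a negative interaction called in 28, IL6 among them (-2.10, adjusted p = 1.4e-13). MHC class II genes had a median of 0.30 after MPS1i, with HLA-DRA called higher and CTSS and HLA-DOB lower. These 1 and 2 calls of 11 were near the shares of all tested genes called higher (15.8%) and lower (17.3%) after MPS1i. The interaction was called negative in 4 of the 11, against 9.55% of all tested genes. Of 34 ATF4 genes, 18 rose and 8 fell after MPS1i. PSAT1 had 162 and 169 CPM with the STING guide after MPS1i against 96.6 and 100.2 CPM in SCR (interaction 1.25, adjusted p = 1.5e-12). Of 41 mitosis genes, 12 rose and 4 fell after MPS1i, the falls a smaller share than the 17.3% of all tested genes. Of 37 matrix genes, 14 rose and 12 fell, and of the 18 called under DMSO 11 were called in the same direction after MPS1i and 2 in the opposite one.

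ITGB3 rose in both treatments, to 48.2 and 45.3 CPM after MPS1i against 24.8 and 24.4 CPM in SCR. CLSTN2 did as well, with 21.7 and 19.8 CPM against 2.98 and 2.82 CPM in SCR after MPS1i. MALAT1, at 3748 and 3527 CPM with the STING guide after MPS1i against 4282 and 4415 CPM in SCR, was lower there (interaction -0.89, adjusted p = 3.3e-09). ACO1, which encodes the iron-regulated cytosolic aconitase, rose by 0.50 under DMSO and by 2.03 after MPS1i.

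Under DMSO, STING-guide cells were set against the MAVS-guide line directly, and 445 genes were higher (2.48%) and 386 lower (2.15%) in STING DMSO, 831 in all (4.63%). Leaving out any 1 of the 4 libraries left 403 to 456 called genes, fewest without STING DMSO replicate 2 (403), and 420, 441 and 456 without MAVS DMSO replicate 1, MAVS DMSO replicate 2 and STING DMSO replicate 1. Of 58 interferon-response genes, 54 were lower in STING DMSO than in MAVS DMSO. IFI44L had 16.9 and 18.9 CPM in STING DMSO and 137 and 135 CPM in MAVS DMSO, a log2 fold change of -2.93 (adjusted p = 4.7e-21). Among the 6 genes of smallest adjusted p in that direction were also CCL5 (-4.43), IFI44 (-2.58), DDX60 (-2.32), OAS2 (-2.59) and OAS3 (-1.52). MUC16, a membrane mucin, was higher in STING DMSO than in MAVS DMSO (1.24), as were the lncRNA genes MALAT1 (0.89), HELLPAR (1.77), LINC00472 (1.28) and GABPB1-AS1 (0.85). No MHC class II gene was lower and 1 was higher, HLA-DMB (0.77, adjusted p = 0.014). CIITA had 2.26 and 2.63 CPM in STING DMSO and 2.24 and 2.38 CPM in MAVS DMSO (adjusted p = 0.91). Of 41 mitosis genes 0 were called either way between these 2 lines. Of 34 ATF4 genes 1 was higher and 7 lower in STING DMSO, and of 37 matrix genes 1 was higher and 4 lower.

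The MAVS and DKO lines were also set against the same 2 SCR DMSO libraries, so their values are given only side by side. Against SCR, 715 genes were higher (3.98%) and 462 lower (2.57%) in MAVS DMSO, 1177 in all (6.56%), and 2837 were higher (15.8%) and 2754 lower (15.3%) in DKO DMSO, 5591 in all (31.1%). The MAVS DMSO count was 344 without MAVS DMSO replicate 1, 759 without its replicate 2, 460 without SCR DMSO replicate 2 and 713 without SCR DMSO replicate 1. The median of the interferon list was -0.98 in STING DMSO, 0.29 in MAVS DMSO and -1.5 in DKO DMSO. That of MHC class II genes was 1.14 in STING DMSO, 1.10 in MAVS DMSO and 1.94 in DKO DMSO, and that of the matrix list was 0.23, 0.27 and 0.66 in the same order. For IFIT1, levels were 12.2 and 16.2 CPM in STING DMSO, 132 and 111 CPM in MAVS DMSO, 5.66 and 7.08 CPM in DKO DMSO, and 87.7 and 91.0 CPM in SCR DMSO. Compared directly, 1402 genes (7.81%) were higher and 1675 (9.33%) lower in STING DMSO than in DKO DMSO, 3077 in all (17.1%), with 1844 left without STING DMSO replicate 1 and 1699 without STING DMSO replicate 2. There, 31 of 58 interferon-response genes were higher and 2 lower. STING1 itself stood at 3.78 and 3.70 CPM in STING DMSO, 10.0 and 10.8 CPM in MAVS DMSO, 4.90 and 4.83 CPM in DKO DMSO and 8.25 and 8.30 CPM in SCR DMSO.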

How the data were processed

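Per the labels' protocols, poly(A) RNA from NCI-H1944 cells was made into stranded libraries. The authors deposited 1 table of raw read counts per gene, with no normalization per the file headers. The submitters' processing notes name STAR, featureCounts, the build GRCh38 and, for trimming, Trimmomatic, cutadapt and Trim Galore. Versions, the strand setting and the handling of multimapping reads are not given in the sources used here. Antisense, overlapping and near-identical genes may thus share reads. Gene lengths in the table equal the genomic span, so levels were not compared between genes per length.

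All 16 libraries were fitted with edgeR 4.0.16 in R 4.3.3: TMM scaling, filterByExpr (minimum count 10, minimum total 15), 1 mean for each of 8 groups, robust quasi-likelihood F-test, two-sided, 8 residual degrees of freedom. Of 60612 genes 17950 were tested, and p-values were adjusted by the Benjamini-Hochberg method over all of them. Calls were made where that p fell under 0.05. CPM were scaled by TMM. SE values were taken from F, as the size of the log2 fold change over the root of F. The fit was tested on simulated counts.

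Named genes are 18 fixed ones, the 12 largest rises and falls with at least 1 CPM and libraries that do not overlap, up to 4 of each list by adjusted p, members called against the majority of their list, called genes within 1 Mb of STING1, the 6 most abundant, and the 6 of smallest adjusted p each way in the interaction and against MAVS DMSO; others were added after their values were seen, and some genes are not reported here. The comparison and the 27 lists were chosen with earlier results of these data known. Same-numbered replicates did not deviate together (28 pairs of groups, residual correlations -0.05 to 0.09). Alternatives were DESeq2 1.42.0, other scalings and filters, thinned counts, a replicate block and single libraries left out. A fit of protein coding genes alone was added after seeing the data.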

Additional observations from a re-analysis of the deposited data

Results flagged for a closer look

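Of 48 genes examined singly (genes of the pathway, largest changes and strongest interactions), 36 had a STING-guide effect that differed between MPS1i and DMSO (interaction, adjusted p under 0.05, edgeR quasi-likelihood test), where 19.5% of all tested genes did. The values are the log2 effect after MPS1i minus that under DMSO, and 12 of these genes were picked for their interaction. Genes chosen as the largest changes under DMSO share those libraries with the interaction.

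Interferon-response genes with a smaller fall after MPS1i than under DMSO were IFI44L (1.51), HERC5 (1.42), MX1 (1.25), IFI44 (1.22), DDX60 (1.08), IFIT1 (1.05), IFI27 (0.67), OASL (0.52) and IFIT3 (0.50). The transcription factor IRF9 (0.54) also had a smaller fall after MPS1i.

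Other genes with a positive difference were ACO1 (1.53), CMTM4 (1.36), PDK3 (1.34), NUDT3 (1.25), PSAT1 (1.25), CLSTN2 (1.06) and MAVS (0.47). Of these, CLSTN2 rose more after MPS1i, while PSAT1 was lower with the STING guide under DMSO and higher after MPS1i.

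The difference was negative for CXCL10 (-5.19), IL6 (-2.10), NT5C3A (-1.88), MUC16 (-1.68), WARS1 (-1.67), TNFAIP3 (-1.56), B2M (-1.26), STING1 (-1.14), HLA-DMB (-0.96), CCL5 (-0.72), CGAS (-0.66), ITGB3 (-0.61), STAT2 (-0.50) and TBK1 (-0.40). CGAS and TBK1 were called lower with the STING guide after MPS1i and were not called under DMSO. For CXCL10, which stood at 1.45 and 1.49 CPM with the STING guide against 38.9 and 42.5 CPM in SCR after MPS1i, the DMSO levels lay near the floor, so the size of the difference depends on few counts. Noncoding loci with rises under DMSO and a negative difference were ENSG00000288674 (-2.18), RP11-268J15.6 (-2.07), RNU2-2P (-1.92), AC008746.12 (-1.84) and RP13-895J2.4 (-1.10).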

How the results depend on the processing

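No called direction reversed in any setting. Of the 1826 genes called, 1801 were called again with DESeq2 size factors, 1709 with no filter on low counts, 1725 of the 1784 kept by a filter at 1 CPM, 1468 in thinned libraries, 1707 with only the compared groups in the fit and 1401 by DESeq2. With the replicate block, 1893 genes were called (1796 of the 1826), and the pairing changed no count beyond 1.5 times. Leaving out single libraries gave 913 to 1283 calls against SCR, 403 to 456 against MAVS DMSO (831 with all), 1699 to 2998 against DKO DMSO (3077), and 344 to 759 for MAVS DMSO over SCR (1177). The share of higher genes among the last was 60.7% with all libraries and reached 75.3%. Fitting protein coding genes alone gave 551 calls against MAVS DMSO and 126 at 2-fold against SCR. With only the compared groups, 1843 genes were called against DKO DMSO. Without the filter, 24 mitosis and 14 histone genes were called lower, and leaving out libraries gave 4 to 13 mitosis, 4 to 11 histone and 13 to 16 ATF4 genes. Interferon calls stayed between 43 and 50 of 58. With windows of 5 Mb the highest median was 0.21, but 60 to 65 Mb of chromosome 9 then held too few tested genes to be kept. Depth limits genes below about 1 CPM, where 3 counts are 0.148 CPM in the shallower STING DMSO library.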
